A study of Mus musculus with 10 samples.

Results

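*Grem1* and 8 further genes (*Nog*, *Chrd*, *Fst*, *Fstl1*, *Fstl4*, *Fstl5*, *Bmper* and *Twsg1*) were examined in sorted embryonic mouse brain cells. They encode secreted antagonists or modulators of bone morphogenetic proteins (BMPs) and activins, or proteins of the same families. The genes were chosen by symbol for their protein family, and all 9 were among the 14300 genes of the count table. *Fstl4* and *Fstl5* are counted among the 9 antagonists below only as follistatin-like proteins. The embryos were C57BL/6J mice of the *Grem1creERT; Rosa26LSLTdtomato* line, collected in mid-gestation 24 h after the dam received tamoxifen. Brain cells were dissociated and live cells were sorted into TdTomato+ cells, called Grem1 positive in the sample labels, and TdTomato- cells, called Grem1 negative. Each of 5 mouse numbers (2 to 6) gave 1 library of each population, so there were 5 libraries per group and 10 in all. Both populations carried the same alleles and the same tamoxifen exposure, and the samples here include no embryo without Cre. Cre is driven by *Grem1* regulatory sequence, and TdTomato persists in a recombined cell and its progeny, so the sort records *Grem1* promoter activity after tamoxifen rather than *Grem1* transcript at the time of collection. The labels name the tissue as brain, while the study's methods name dorsal telencephalon freed of meninges. The study's figure legend counts 5 mice sorted for sequencing, without saying whether a mouse number stands for 1 embryo or for pooled littermates.

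BMPs and activins are secreted dimers that bind paired type I and type II serine-threonine kinase receptors and signal through Smad proteins, with Id genes among the best known BMP targets. Secreted antagonists bind the ligands outside the cell and keep them from the receptors: gremlin 1, noggin and chordin bind BMPs, and follistatin binds activins most tightly. In the embryonic forebrain, BMPs from the dorsal midline pattern the cortical hem and choroid plexus, and antagonists limit where that signal acts.

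Levels are given as CPM (counts scaled to library size by TMM) to compare libraries for 1 gene, and as CPM per kilobase of exon (RPKM) to compare genes. Log2 fold changes are TdTomato+ relative to TdTomato-, from a paired fit in edgeR over all genes with Benjamini-Hochberg adjustment, and a gene was said to rise or fall at an adjusted p of 0.05 or less. Because these are bulk libraries, fewer cells of a type and less RNA per cell cannot be told apart for any gene below. Of the 9 genes, 3 rose (*Grem1*, *Chrd* and *Fstl4*), against 37.9% of all genes tested, and 5 fell (*Nog*, *Fstl1*, *Fstl5*, *Bmper* and *Twsg1*), against 39.4% of all genes tested. *Fst* did not pass. Where a log2 change of 2 or more in size was also required, *Grem1* was the 1 gene that rose, where 3.2% of all genes did, and *Bmper* the 1 that fell, where 9.74% did. CPM ranges of the 5 libraries did not overlap for 2 genes higher in TdTomato+ cells (*Grem1* and *Chrd*), where 29.1% of all genes did so, and for 5 lower genes, where 32.4% did so. The median log2 fold change of the 9 genes was -0.81, beside -0.01 over all genes. Most genes of the table passed on adjusted p (11056), so the counts are to be read beside these shares.

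**Figure D1:**
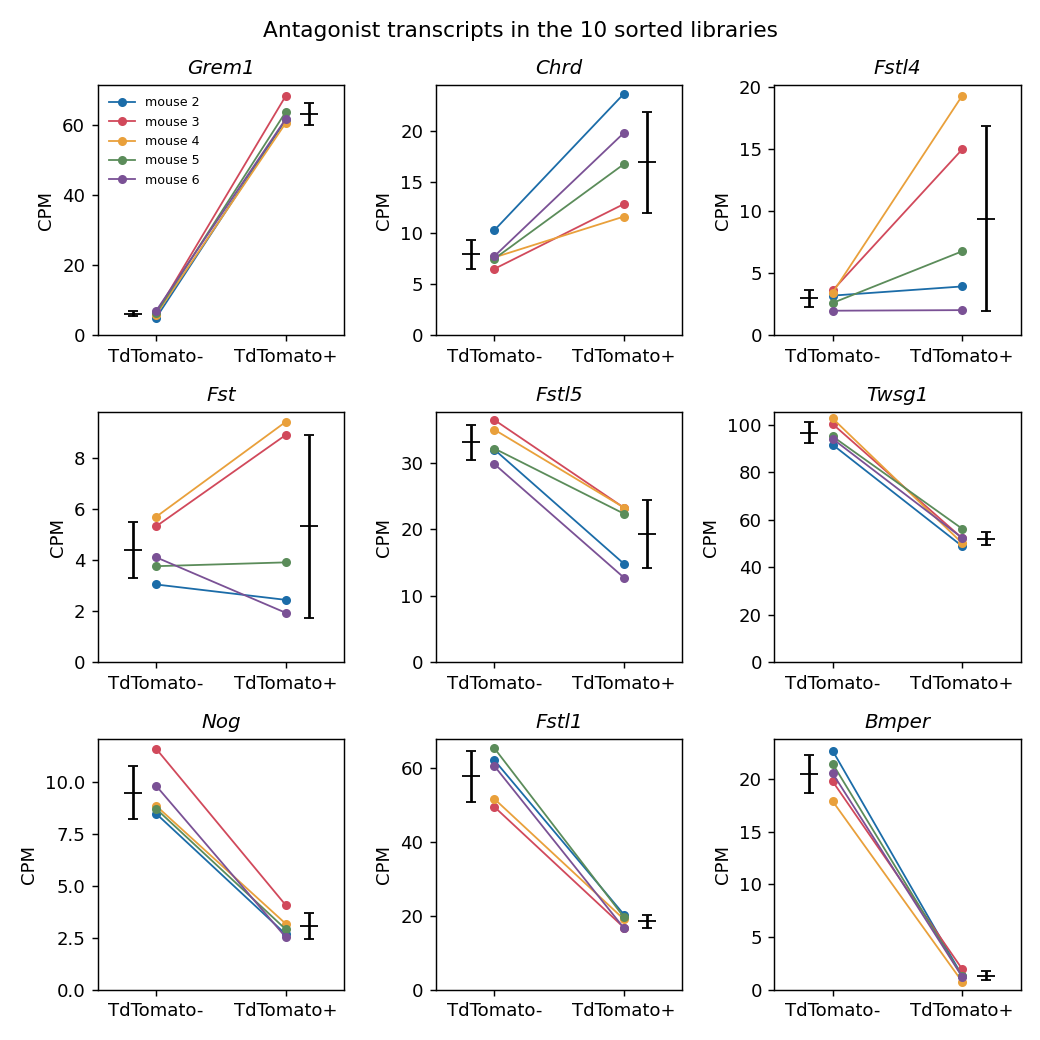
CPM (linear axes from 0) of the 9 genes in the TdTomato- and TdTomato+ library of each mouse, with a line joining the libraries of a mouse and bars for mean and SD (n = 5). *Grem1* climbed steeply in every mouse and *Bmper* dropped to near 0, while the TdTomato+ points of *Fst* and *Fstl4* spread widely.

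The proximal promoters of *Grem1*, *Chrd* and *Bmper* are shown because the sort depends on *Grem1* regulatory sequence and these genes moved in opposite directions. Each run is the 250 bases before the RefSeq transcript start, 5′ to 3′ on the gene's strand, build GRCm38.p6, with any GGCGCC (a GC-rich Smad-type element, searched on both strands) in capitals. *Grem1* is at chr2:113758649-113758898 on the minus strand, *Chrd* at chr16:20732877-20733126 and *Bmper* at chr9:23222826-23223075, both on the plus strand.
Grem1: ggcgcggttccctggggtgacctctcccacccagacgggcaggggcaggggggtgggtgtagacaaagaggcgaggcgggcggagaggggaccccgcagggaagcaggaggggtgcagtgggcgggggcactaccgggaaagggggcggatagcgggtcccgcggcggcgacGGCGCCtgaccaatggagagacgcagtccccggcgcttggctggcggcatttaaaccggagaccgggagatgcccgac
Chrd: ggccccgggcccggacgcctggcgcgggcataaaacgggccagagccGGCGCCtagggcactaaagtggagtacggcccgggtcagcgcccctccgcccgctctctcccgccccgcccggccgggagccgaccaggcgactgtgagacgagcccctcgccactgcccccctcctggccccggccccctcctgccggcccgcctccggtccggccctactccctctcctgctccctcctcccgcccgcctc
Bmper: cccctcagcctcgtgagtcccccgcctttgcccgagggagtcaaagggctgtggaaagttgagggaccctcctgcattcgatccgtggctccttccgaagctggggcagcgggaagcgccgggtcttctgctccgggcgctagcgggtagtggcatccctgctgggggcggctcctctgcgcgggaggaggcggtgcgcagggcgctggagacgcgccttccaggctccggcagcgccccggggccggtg
RefSeq promoters were matched for 7 of the 9 genes, not for *Nog* and *Fst*. GGCGCC was found at -78 from the start of *Grem1* and at -203 from that of *Chrd*, and in none of the other matched promoters. It occurs in 9.59% of all 32851 promoters. The E-box CAGATG, present in 14.4% of promoters, was found in *Twsg1* at -229 and in the first *Fstl5* promoter at -72. TCACACCT (1.12% of promoters), AACAAT (9.42%) and TGGGAA (21.6%) were found in none of those matched. The 3 printed promoters were GC-rich, at 72.0% for *Grem1*, 78.0% for *Chrd* and 71.6% for *Bmper*, beside a median of 52.4% over all promoters. These matches describe letters only.

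*Grem1* (ENSMUSG00000074934, chr2:113746164-113758646, minus strand, GRCm38) encodes gremlin 1, a BMP antagonist of the DAN family. It stood at 5.00, 6.32, 5.93, 6.30 and 7.004 CPM in the TdTomato- libraries of mice 2, 3, 4, 5 and 6. In the TdTomato+ libraries of the same mice it stood at 61.6, 68.4, 60.7, 63.8 and 61.8 CPM. Every TdTomato+ library was far above every TdTomato- library. The mean of *Grem1* was 6.11±0.731 CPM (SD, n = 5) without TdTomato and 63.3±3.10 CPM with it, a 10.4-fold rise (log2 fold change 3.37, s.e. 0.07, edgeR adjusted p = 1.8e-09). Since Cre was driven by *Grem1*, this difference is close to what the sort selected and serves as a check of the labels. The rise ranked 70 of 14300 genes in size. The TdTomato- libraries still held 128 to 201 *Grem1* counts each.

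*Bmper* (ENSMUSG00000031963, chr9:23223076-23485200, plus strand) encodes a secreted BMP-binding protein with chordin-like repeats that can either restrain or promote BMP activity. Its TdTomato- libraries of mice 2 to 6 stood at 22.7, 19.8, 17.9, 21.4 and 20.5 CPM. Its TdTomato+ libraries stood at 1.31, 1.95, 0.751, 1.26 and 1.22 CPM. The populations were far apart in every mouse. The mean of *Bmper* was 20.5±1.80 CPM without TdTomato and 1.30±0.429 CPM with it, a 15.8-fold fall (log2 fold change -3.98, s.e. 0.15, edgeR adjusted p = 2.7e-08). Between 17 and 45 reads of *Bmper* were counted per TdTomato+ library, above the floor of 3 counts.

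*Nog* (ENSMUSG00000048616, chr11:89300638-89302332, minus strand) encodes noggin, which blocks both receptor-binding faces of BMP dimers. It stood at 8.48, 11.6, 8.86, 8.72 and 9.83 CPM in TdTomato- cells of mice 2 to 6. It stood at 2.67, 4.08, 3.18, 2.91 and 2.53 CPM in TdTomato+ cells. The groups did not overlap, and *Nog* fell (log2 fold change -1.63, s.e. 0.11, edgeR adjusted p = 1.0e-06). Its direction was thus opposite to that of *Grem1*, although both encode BMP antagonists.

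*Chrd* (ENSMUSG00000006958, chr16:20733127-20742384, plus strand) encodes chordin, a BMP antagonist that tolloid proteases cut. It stood at 10.3, 6.50, 7.62, 7.49 and 7.74 CPM in TdTomato- cells of mice 2 to 6. It stood at 23.6, 12.8, 11.6, 16.7 and 19.8 CPM in TdTomato+ cells. The lowest TdTomato+ library was above the highest TdTomato- library. *Chrd* rose by 1.07 on the log2 scale (s.e. 0.11, edgeR adjusted p = 1.8e-05), from 7.92±1.41 to 16.9±4.95 CPM. Of its exonic length, 3.82% lies opposite *Thpo*, and the strand column of the counts is not given in the sources used here.

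*Twsg1* (ENSMUSG00000024098, chr17:65921972-65951226, minus strand) encodes twisted gastrulation, which binds BMPs and chordin. Per kilobase it was the most abundant of the 9 in TdTomato- cells, and it ranged from 91.7 to 102.7 CPM there, against 49.0 to 56.3 CPM in TdTomato+ cells. These ranges lay well apart. *Twsg1* fell (log2 fold change -0.90, s.e. 0.05, edgeR adjusted p = 3.0e-07), with a change of -1.03 to -0.76 across the 5 mice.

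*Fst* (ENSMUSG00000021765, chr13:114452290-114458951, minus strand) encodes follistatin, the classic activin antagonist. It stood at 3.05, 5.32, 5.69, 3.76 and 4.11 CPM in TdTomato- cells of mice 2 to 6. It stood at 2.45, 8.89, 9.40, 3.91 and 1.94 CPM in TdTomato+ cells. The groups overlapped, and TdTomato+ exceeded TdTomato- in mice 3, 4 and 5 but not in mice 2 and 6. The paired fit gave a log2 fold change of 0.11 (s.e. 0.25, edgeR adjusted p = 0.70). The SD of log2 CPM among TdTomato+ libraries was 1.02, larger than that of 99.0% of genes. Of its exonic length, 2.51% lies opposite *Gm47040*.

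*Fstl4* (ENSMUSG00000036264, chr11:52764634-53188538, plus strand) encodes a follistatin-like protein. It stood at 3.21, 3.63, 3.45, 2.62 and 1.99 CPM in TdTomato- cells of mice 2 to 6. It stood at 3.94, 15.0, 19.3, 6.78 and 2.03 CPM in TdTomato+ cells. Mice 3 and 4 were high, mouse 5 intermediate, and mice 2 and 6 close to the TdTomato- level, so the ranges overlapped. *Fstl4* rose by 1.38 on the log2 scale (s.e. 0.34, edgeR adjusted p = 0.0046), with changes from 0.03 in mouse 6 to 2.46 in mouse 4. Its SD of log2 CPM was 1.32 among TdTomato+ libraries, larger than that of 99.7% of genes, and 0.35 among TdTomato- libraries.

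*Fstl1* (ENSMUSG00000022816, chr16:37776873-37836514, plus strand) encodes a secreted glycoprotein that can bind BMP4. It stood at 62.2, 49.5, 51.7, 65.4 and 60.6 CPM in TdTomato- cells of mice 2 to 6. It stood at 20.4, 16.8, 19.1, 19.7 and 16.7 CPM in TdTomato+ cells. No library of one group reached the other, and *Fstl1* fell (log2 fold change -1.64, s.e. 0.07, edgeR adjusted p = 3.7e-08).

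*Fstl5* (ENSMUSG00000034098, chr3:76074270-76710019, plus strand) encodes another follistatin-like protein. It ranged from 29.8 to 36.4 CPM among TdTomato- libraries and from 12.7 to 23.3 CPM among TdTomato+ libraries, without overlap. *Fstl5* fell (log2 fold change -0.81, s.e. 0.11, edgeR adjusted p = 1.1e-04), with the largest falls in mice 2 and 6. The follistatin family thus held 1 gene that rose, 2 that fell and 1 that did not pass.

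**Figure D2:**
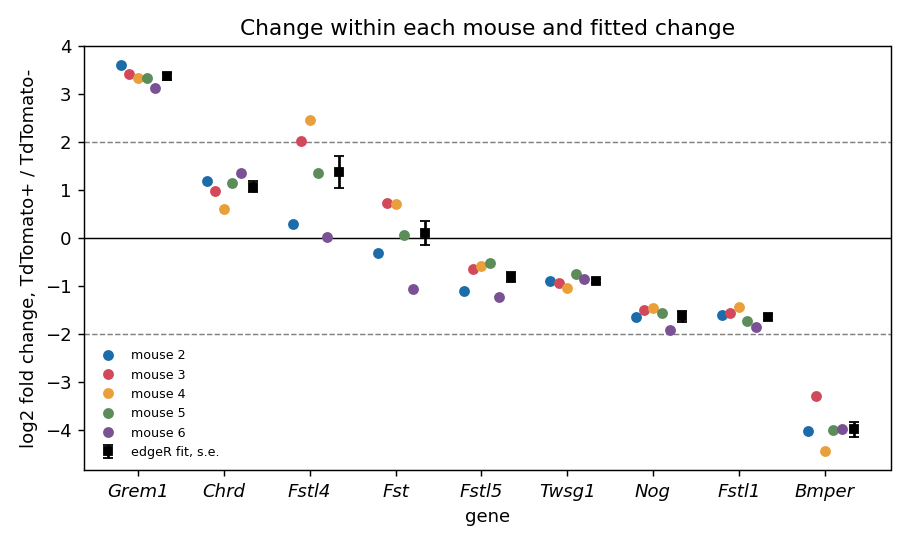
Log2 fold change (TdTomato+ over TdTomato-) within each mouse as coloured points, and the edgeR fit with its standard error as black squares, for the 9 genes; dashed lines mark log2 fold changes of 2 and -2. *Grem1* lay between 3.13 and 3.60 in the 5 mice and *Bmper* between -4.43 and -3.29, while *Fstl4* ran from 0.03 to 2.46.

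The wide spread of *Fst* and *Fstl4* followed an order of TdTomato+ libraries, with mice 3 and 4 above mouse 5 and mouse 5 above mice 2 and 6. This order was picked after their values were seen. *Nog* and *Fstl5* had the same order among TdTomato+ libraries, as did 8.93% of all genes, and *Chrd* had the reverse order, as did 9.45%. Among TdTomato- libraries *Fstl5* and *Twsg1* had it, beside 6.34% of genes. The first principal component of the TdTomato+ libraries, 49.2% of their variance, scored -26.0, 23.9, 30.4, -7.94 and -20.3 for mice 2 to 6. That of the TdTomato- libraries, 43.0% of their variance, ordered the mice alike, at -24.1, 15.5, 26.0, -6.72 and -10.6. Of 14 marker lists, the summed CPM of Cajal-Retzius markers (137 to 176, 8 of 8 genes in the table) and of GABAergic markers (64.0 to 98.7, 13 of 13) had the same order in TdTomato+ libraries. In each of these lists 5 genes had it on their own, and *Npy* of the GABAergic list had the reverse. Most of the Cajal-Retzius sum was *Reln* (122 to 143 CPM), which had neither the order nor its reverse. The sum of radial glia markers (659 to 1048, 13 genes) had the reverse order, but it was mostly *Ptprz1* (498 to 906 CPM), the 1 gene of the list with that order and the 1 that rose in TdTomato+ cells, and *Sox9* had the opposite one. The part of these cell types in the spread of *Fst* and *Fstl4* was not tested.

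Per kilobase, *Twsg1* led the TdTomato- population at 18.8±0.889 RPKM, followed by *Fstl1* at 11.8±1.41 and *Nog* at 5.60±0.759. *Bmper* (4.23±0.373 RPKM) and *Fstl5* (3.57±0.284) came next, with overlapping ranges. *Grem1* (1.47±0.176 RPKM), *Chrd* (1.27±0.225), *Fst* (0.956±0.240) and *Fstl4* (0.680±0.154) were lowest, each overlapping its neighbour in the order. Low-level neighbours therefore had no firm order. With the longest transcript as the length, *Fstl5* stood at 6.47 RPKM, above *Nog* with overlapping ranges, so the order of *Nog*, *Bmper* and *Fstl5* depends on the length used.

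In TdTomato+ cells *Grem1* led at 15.2±0.747 RPKM, above *Twsg1* at 10.1±0.541, without overlap. *Fstl1* (3.77±0.341 RPKM), *Chrd* (2.70±0.791), *Fstl4* (2.15±1.70), *Fstl5* (2.08±0.549), *Nog* (1.81±0.361) and *Fst* (1.16±0.779) followed, and each overlapped the next. *Bmper* was lowest at 0.269±0.0887 RPKM, under all others. *Grem1* made up 3.05±0.353% of the summed RPKM of the 9 genes in TdTomato- and 38.9±2.29% in TdTomato+ cells. The share of *Twsg1* was 38.9±1.85% in TdTomato- and 25.8±2.18% in TdTomato+ cells, and that of *Bmper* 8.75±0.776% and 0.684±0.203%. The summed level itself was 48.4±0.581 RPKM in TdTomato- and 39.3±2.91 RPKM in TdTomato+ cells.

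**Figure D3:**
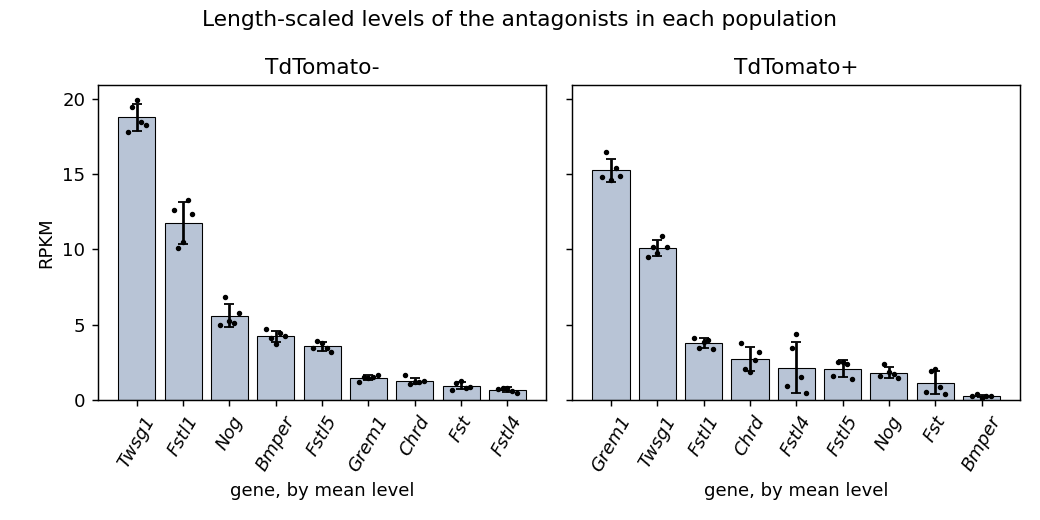
Mean RPKM (linear axis) of each gene in TdTomato- and TdTomato+ cells, ordered from highest to lowest, with SD bars and a point per library (n = 5). *Twsg1* heads the TdTomato- order at 18.8 RPKM, and *Grem1* heads the TdTomato+ order at 15.2 RPKM.

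The sorted populations also differed in marker genes of other cell types. Over all genes tested, 37.9% rose and 39.4% fell. Deep layer neuron markers summed to 2615 to 3314 CPM in TdTomato- and 9026 to 10106 CPM in TdTomato+ libraries, and 10 of 12 rose. Markers of neural cells that were lower in TdTomato+ libraries included those of radial glia (2480 to 3056 against 659 to 1048 CPM, 12 of 13 fell), intermediate progenitors (1209 to 1451 against 238 to 299 CPM, 8 of 8 fell) and GABAergic neurons (1823 to 2241 against 64.0 to 98.7 CPM, 13 of 13 fell). Most of the intermediate progenitor sum in TdTomato+ libraries was *Elavl4* (134 to 200 CPM), with a log2 fold change of -0.43. The other markers of that list ran from -5.09 to -2.54. Meningeal markers, with 5 of 14 in the table, ran from 209 to 291 CPM in TdTomato- and from 17.1 to 31.7 CPM in TdTomato+ libraries, and 4 of the 5 fell. Most of that sum was *Zic1*, at 231±32.9 and 19.8±5.42 CPM, a gene also expressed by neural cells. Pericyte markers, with 4 of 8 in the table, ran from 11.5 to 18.8 and from 1.02 to 3.04 CPM, and 3 of the 4 fell. Every marker in the table also fell for Cajal-Retzius cells (8), microglia (7), erythroid cells (6), oligodendrocyte precursors (5) and choroid plexus (2). The cortical hem sum was higher in TdTomato+ libraries (67.9 to 89.3 against 26.6 to 39.2 CPM), although 6 of its 8 measured genes fell and 1, *Rspo3*, rose. Subplate markers summed to 60.9 to 94.9 and 310 to 419 CPM (4 of 6 rose, 2 fell), and of 4 endothelial markers 1 fell (3.25 to 5.85 and 2.76 to 4.31 CPM). The part of these cells in the falls of *Bmper*, *Fstl1*, *Nog* and *Twsg1* was not tested.

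Among 17 further genes in the table, of 26 listed as antagonists or modulators of these ligands, 6 rose, 6 fell and 5 did not pass, with a median log2 fold change of -0.11. Here and in the lists below, counts are to be read beside the 37.9% of all genes tested that rose and the 39.4% that fell. *Kcp*, a kielin/chordin-like protein, rose from 4.88±2.20 to 28.8±11.8 CPM (log2 fold change 2.55, edgeR adjusted p = 3.7e-07). *Inha* (inhibin alpha, 1.28), *Vwc2l* (1.08), *Tmeff2* (0.74), *Crim1* (0.53) and *Tmeff1* (0.24) also rose on the log2 scale. *Htra1*, a secreted protease, fell by 4.55 on the log2 scale, although its TdTomato- level of 13.53±8.83 CPM varied widely. *Wfikkn2* (-2.13, at 2 to 18 counts in TdTomato+ libraries), *Sfrp1* (-1.73), *Nbl1* (-1.70), the transmembrane pseudoreceptor gene *Bambi* (-1.10) and *Rgmb* (-0.41) also fell. *Rgmb* and *Rgma* encode membrane-anchored BMP co-receptors, which are not antagonists. *Dand5* (0.17), *Rgma* (0.08), *Wfikkn1* (-0.11), *Chrdl1* (-0.80) and *Vwc2* (-0.86) did not pass.

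Of 6 genes in the table, from 7 listed, that act on chordin or on tolloid proteases, 3 rose, 2 fell and 1 did not pass, with a median log2 fold change of -0.18. *Tll2*, a tolloid-like protease, rose from 2.92±0.631 to 26.8±18.1 CPM (log2 fold change 2.98, edgeR adjusted p = 8e-05). *Bmp1*, which cleaves chordin, rose by 0.14 on the log2 scale, and *Tll1*, which also does, had a log2 fold change of -0.49 and did not pass. *Olfml3* rose by 1.37. *Sfrp2* fell from 25.9±1.97 to 5.78±2.79 CPM (log2 fold change -2.24), and *Pcolce2* had 2 to 5 counts in TdTomato+ libraries (log2 fold change -3.20).

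Of 12 ligand genes in the table, from 30 listed, 2 rose, 6 fell and 4 did not pass, with a median log2 fold change of -0.31. *Bmp3* rose from 4.96±0.592 to 33.3±8.95 CPM (log2 fold change 2.72, edgeR adjusted p = 4.4e-08), and *Gdf10*, its close relative, rose by 1.69 on the log2 scale. *Bmp7* fell from 4.08±0.933 to 0.649±0.326 CPM (-2.68), and *Tgfb2* (-2.44), *Tgfb3* (-1.94), *Inhbb* (-0.76) and *Gdf11* (-0.20) fell on the same scale. *Tgfb1* passed as lower with 1 to 3 counts in each TdTomato+ library, at or under the floor, so that no fold is given. *Inhba* (0.04), *Gdf9* (0.22), *Amh* (0.23) and *Bmp6* (-0.41) did not pass.

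Of 12 receptor genes in the table, from 13 listed, 5 rose, 4 fell and 3 did not pass, with a median log2 fold change of -0.01, and the 1 that fell past both thresholds was *Tgfbr2*, with 0 to 1 counts in TdTomato+ libraries. Of 7 Smad genes in the table, from 8 listed, 1 rose and 6 fell, with a median of -0.25, and the inhibitory *Smad6* fell by 2.54 on the log2 scale. Of 13 BMP target genes in the table, from 15 listed and with *Nog* among them, 1 rose, 11 fell and 1 did not pass, with a median of -2.17. Over all genes tested, 39.4% fell, and 9.74% fell past both thresholds. *Smad6* and *Smad7* were also counted in the Smad list, and *Bambi* among the further antagonists or modulators. The gene that rose was *Id2*, from 109.5±21.2 to 324±47.5 CPM (log2 fold change 1.57, edgeR adjusted p = 1.5e-08), with no overlap between the groups. Those that fell past both thresholds were *Id1* (-3.06), *Id3* (-4.31), *Id4* (-3.46), *Smad6*, *Msx1* (-2.75, 1 to 6 counts in TdTomato+ libraries), *Lmx1a* (-2.17, 1 to 12 counts) and *Dlx2* (-5.71), of which *Id4* also marks progenitors, *Lmx1a* and *Msx1* the cortical hem and *Dlx2* GABAergic precursors.

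**Figure D4:**
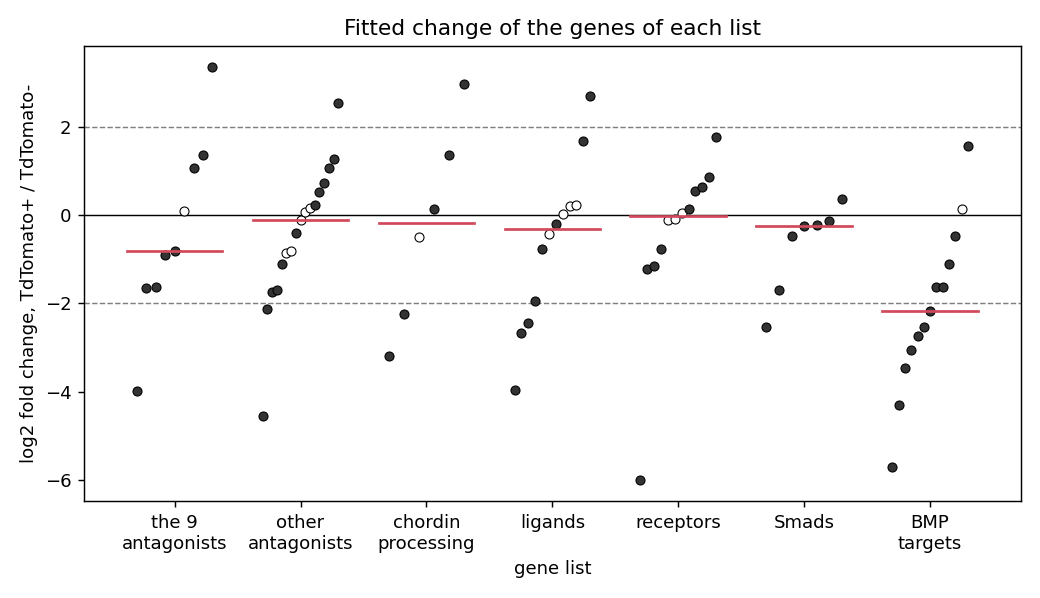
Fitted log2 fold change (TdTomato+ over TdTomato-) of the 9 antagonists and of 6 lists of BMP, activin and TGF-beta pathway genes, with filled points at an adjusted p of 0.05 or less, red bars for medians and dashed lines at 2 and -2. The BMP target list had the lowest median, -2.17; the points of *Tgfb1* and *Tgfbr2*, at or under 3 counts in every TdTomato+ library, depend on the prior count.

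Across the 9784 genes with a mean log2 CPM of at least 3, patterns among the closest to *Grem1* over the 10 libraries were those of *Gfod1* (Pearson r 0.999), *Tmem108* (0.999), *Slc6a17* (0.998) and *Tbc1d14* (0.998). The libraries form separate clusters by population, and these values are a description with no test. After removal of each population's mean, the closest were *Bcar1* (0.930), *Ppp2r2b* (0.930), *Polr2c* (0.928), *Mrps16* (0.926) and *Eif2b2* (0.922). The nearest protein-coding genes of the table beside *Grem1* were *Scg5*, 17.7 kb away, which rose by 0.22 on the log2 scale, and *Ryr3*, 529.1 kb away, which rose by 3.67. Beside *Nog*, *Dgke* rose by 0.80 on the log2 scale and *Ankfn1* fell by 4.04. Beside *Bmper*, *Bbs9* had a log2 fold change of -0.03 and did not pass, and *Dpy19l1*, 926.6 kb away, rose by 1.84. Beside *Chrd*, *Polr2h* and *Ephb3* fell by 0.35 and 2.47 on that scale, and beside *Fstl1*, *Lrrc58* fell by 0.96 while *Ndufb4* (0.16) did not pass. Beside *Fstl4*, *9530068E07Rik* and *Hspa4* fell by 0.61 and 0.28, and beside *Fstl5*, *Golim4* fell by 1.31 and *Rapgef2* rose by 0.52. Beside *Twsg1*, *Ankrd12* rose by 1.31.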

How the data were processed

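Poly(A) RNA of 10 sorted populations was sequenced. The deposited values are gene-level read counts that the authors made, per the labels and methods, by trimming, STAR 2.4.2a alignment to GRCm38 and unique-read counting, with low genes left out (all 14300 genes exceeded 0.5 CPM in at least 5 libraries). The labels and methods differ in kit and read length, and the counted strand and annotation release are not given in the sources used here. Totals were 23429034 to 27286180 counts per library, and a floor of 3 counts (0.104 to 0.136 CPM) covers counting error only. Symbols, coordinates and exonic lengths came from GENCODE M21, with 29 genes unmatched.

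Populations were compared in edgeR 4.0.16 (R 4.3.3) by its quasi-likelihood test (glmQLFit, glmQLFTest) after filterByExpr and TMM, blocked on mouse number, with a prior count of 0.125 for fitted fold changes and Benjamini-Hochberg adjustment over 14300 genes. Each mouse number gave both populations, and deviations from population means correlated at 0.303, 0.268, 0.281, 0.186 and 0.316 within mice 2 to 6, and at -0.312 to 0.212 between numbers. An exact sign-flip test over 5 pairs cannot go below p = 0.0625 and was not used. Log2 CPM used a prior count of 2. On simulated counts, 200 of 200 genes given a log2 change of 3 were called at both thresholds, as were 0 unchanged genes, and 13 unchanged genes of 14264 tested passed on adjusted p alone. The planted change lay above the threshold of 2, few genes were changed, and the simulated means held no mouse effect. The simulation therefore does not measure error for smaller changes or where most genes differ. Alternatives were RLE and upper-quartile scaling, DESeq2 1.42.0, other count filters, no block, robust estimation, TREAT, raw totals, longest-transcript length and each mouse left out.

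Named genes were the 9 antagonists, all ligands and other antagonists or modulators in the table, pathway genes past both thresholds, the 5 genes most like *Grem1* by either measure, and nearest neighbours of genes that passed. A few genes chosen this way are not reported here. Members and lists were chosen with earlier results of these data known.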

Additional observations from a re-analysis of the deposited data

How the results depend on the processing

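The calls of the 9 genes held under each alternative scaling, filter, tool and left-out mouse, with 8 passing on adjusted p and 2 passing both thresholds throughout. *Fst*, which did not pass, was the 1 gene whose sign turned: its log2 fold change was -0.090 without mouse 3 and -0.075 without mouse 4 (edgeR adjusted p = 0.78 and 0.81), and ran from -0.090 to 0.36 over the left-out mice. *Fstl4* ran from 1.05 to 1.66 over all alternatives, with an adjusted p of at most 0.024. Without the replicate block of the paired design, 1846 genes of the table passed both thresholds (1850 with it), and no call of the 9 genes changed, but 2 chordin-processing genes rose (3 with it), 5 ligands fell (6 with it) and 4 receptors rose (5 with it). DESeq2 called 8 of the other antagonists lower and fits without mouse 2, 4 or 5 called 7, against 6. Requiring more than 1 CPM left 5 ligands, 3 receptors and 9 BMP targets lower. Leaving out a mouse moved a list count by at most 1. With the longest transcript as the length, 6 genes changed rank by RPKM in TdTomato- and 4 in TdTomato+ cells, and the *Grem1* share of the summed RPKM was 2.38% and 32.8%. Over scalings and lengths, 13 of 36 RPKM levels moved by more than 1 SD. Symbols were matched on an annotation release that may differ from that of the counts.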

Other observations

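Within 1 Mb of *Grem1*, 5 further protein-coding genes of the table had log2 fold changes (TdTomato+ over TdTomato-) of -3.48 for *Arhgap11a*, -1.30 for *Gjd2*, -0.46 for *Aqr*, -0.27 for *Dph6* and 0.32 for *Zfp770*, so that both directions occurred around the gene. In none of the 18 sets of 5 libraries (9 genes in each population) did a single library stand apart from the others by Dixon's criterion.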
